A study of Mus musculus with 4 samples.

Results

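The ubiquitin-specific proteases, or USPs, are the largest family of deubiquitinating enzymes. The members described here are all genes of the deposited count matrix whose symbol is Usp followed by a number and, in some, further letters, which gave 57 of 28692 genes. By name 55 of them are protease genes. The rule also took in Usp6nl, which encodes a GTPase-activating protein for Rab proteins, and Usp46os1, an antisense RNA that lies on the opposite strand of Usp46. Both are given with the others and enter the counts of members, but not the sum over the 55 protease genes. In the 4 libraries, 48 members had at least 50 unique molecular identifiers (UMI) over the cell classes used below, and the other members are accounted for in the paragraph on scarce members.

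The study profiled single testicular cells of C57BL/6 mice at postnatal day 63. Per the labels there were 2 samples of the genotype Phf7 f/f, in which Phf7 carries sites for Cre but no Cre is named, and 2 samples called Phf7 tKO, in which Stra8-Cre was added to Phf7 f/f. Stra8 is switched on in germ cells about to enter meiosis, so a Stra8-driven Cre acts in the germ line and not in the somatic cells. Testes were broken up with enzymes, the suspension was strained and red blood cells were lysed, and all cells were loaded without a sort. Nothing in the labels shows if 1 animal or several stood behind a genotype. No label tied a library to a genotype, so every value below pools both genotypes, no genotypes were compared and no test or p-value is given.

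Ubiquitin is attached to proteins as single units or chains, and it marks them for the proteasome, sends membrane proteins through endosomes, or, on histones H2A and H2B, marks chromatin. USPs cut it off again, each on its own substrates and often with a partner protein. In the testis, ubiquitin on histones is known for its part in silencing the sex chromosomes during meiosis and in the later exchange of histones for protamines, and several USPs are known from transcripts abundant in germ cells.

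The matrix held 32273 barcodes with suffixes 1 to 4, one suffix for each library, and 190744950 UMI, between 44447735 and 50353091 in a library. Of 31772 barcode sequences, 497 (1.56%) occurred in more than 1 library. The filters kept 29953 cells, of which 7207 were in clusters that stayed unnamed. Class names carry "like", since only marker genes support them. The 6 germ cell classes held 706 cells like spermatogonia, 805, 431 and 3086 like early, pachytene and late spermatocytes, and 5199 and 9210 like round and elongating spermatids. Their own marker lists had 10 of 12, 10 of 12, 5 of 10, 4 of 10, 11 of 12 and 11 of 12 genes highest in the class of that name. The pachytene and late classes were thus separated less sharply than the others. Pachytene spermatocyte-like cells were by far the deepest germ cells, with a median of 29375 UMI, against 2467 to 6277.5 in the other 5 classes. Phf7 itself stood apart between libraries, at 236, 1080, 1411 and 319 counts per 1000000 UMI (CPM) in the pachytene spermatocyte-like cells of suffixes 1 to 4, and no library was given a genotype from it. Brdt, the bromodomain gene of the study's title, was at 226, 240, 217 and 224 CPM in the same cells.

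RNA of spermatids was counted in other cells too. Its source, such as free RNA or doublets, was not tested. The 12 elongating spermatid markers, all above 0 in each class, summed to 196586 CPM in elongating spermatid-like cells. They also reached 65695 CPM in Sertoli-like cells, 16758 CPM in spermatogonia-like, 24170 CPM in early, 2461 CPM in pachytene and 7497 CPM in late spermatocyte-like cells. The genes Tnp1, Tnp2, Prm1 and Prm2 together took 4.19% and 4.12% of UMI in the shallow spermatogonia-like and early spermatocyte-like clusters 23 and 20, whose medians were 1189.5 and 1178 UMI. They took 0.665% and 0.937% in the deeper clusters 19 and 17 of the same classes. The part of this spermatid RNA in the members' values was not tested, and results that move with it are named beside them.

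As a share of RNA, the summed level of the family changed little until the spermatid elongated. Summed over the 55 protease genes, the level was 1999 CPM in spermatogonia-like cells, 1870 CPM in early, 1970 CPM in pachytene and 2256 CPM in late spermatocyte-like cells, and 2284 CPM in round spermatid-like cells. In elongating spermatid-like cells it was 892 CPM, and the 4 libraries lay between 876 and 933 CPM there, below every library of the other germ cell classes. Usp1 and Usp2 held much of the sum in late spermatocyte-like cells, at 528 and 579 CPM, against 190 and 118 CPM in spermatogonia-like cells. The other proteases together were thus lower in late spermatocyte-like than in spermatogonia-like cells. Counted per cell, the family gave 9.33 UMI in spermatogonia-like cells and 6.45, 61.3 and 24.6 UMI in early, pachytene and late spermatocyte-like cells. Round and elongating spermatid-like cells had 15.9 and 7.41 UMI. The count per cell was thus not flat before elongation, and the classes also differ in depth. Sertoli-like, Leydig-like, macrophage-like and interstitial mesenchymal-like cells had 1362, 1069, 1116 and 1238 CPM. CPM are shares of a class's RNA, so a lower CPM does not show fewer transcripts per cell. UMI count the 3' ends of transcripts, so CPM is not divided by gene length.

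Beneath this flat sum, single members peaked at different stages. Of the 48 members with enough UMI, 11 were highest in spermatogonia-like cells, where 16.7% of all 16669 genes were highest, and 9 in early spermatocyte-like cells (7.44% of genes). A further 3 were highest in pachytene (9.59%) and 4 in late spermatocyte-like cells (11.9%), 11 in round (16.6%) and 2 in elongating spermatid-like cells (7.09%). These last 2 were Usp44 and the antisense RNA Usp46os1. Members of the first group included Usp34, a regulator of Wnt signalling, at 308 CPM, and the proteasome-bound Usp14 at 122 CPM. Usp1, which acts in DNA repair, was highest in late spermatocyte-like cells at 528 CPM. Usp2, Usp15 and Usp7 were highest in round spermatid-like cells at 592, 299 and 178 CPM. For Usp2 this peak was shared, because late spermatocyte-like cells had 579 CPM, with libraries at 593, 579, 588 and 556 CPM against 590, 590, 605 and 585 CPM in round spermatid-like cells. Usp16, an H2A deubiquitinase needed for chromosome segregation, was at 113 CPM in both classes. Further peaks were near ties, so the counts per class depend on small differences. The ratio of highest to second class was 1.02 for Usp10 and Usp53, 1.03 for Usp20, 1.07 for Usp50, and 1.08 for Usp12 and Usp38. Somatic cells held the highest level of 8 members. Leydig-like cells had 5 of them (10.4%, beside 10.8% of genes), which were Usp22, Usp33, Usp38, Usp9x and Usp6nl. Sertoli-like, macrophage-like and interstitial mesenchymal-like cells had 1 each (2.08%), beside 2.96%, 6.43% and 10.5% of genes. The Leydig-like share was thus near that of all genes, and the other somatic shares were below theirs. The macrophage-like peak of Usp12 rested on 26 UMI, at 27.1 CPM (17.7 to 39.7). The interstitial mesenchymal-like peak of Usp11 rested on 14 UMI, with 0 CPM in suffix 2.

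**Figure D1:**
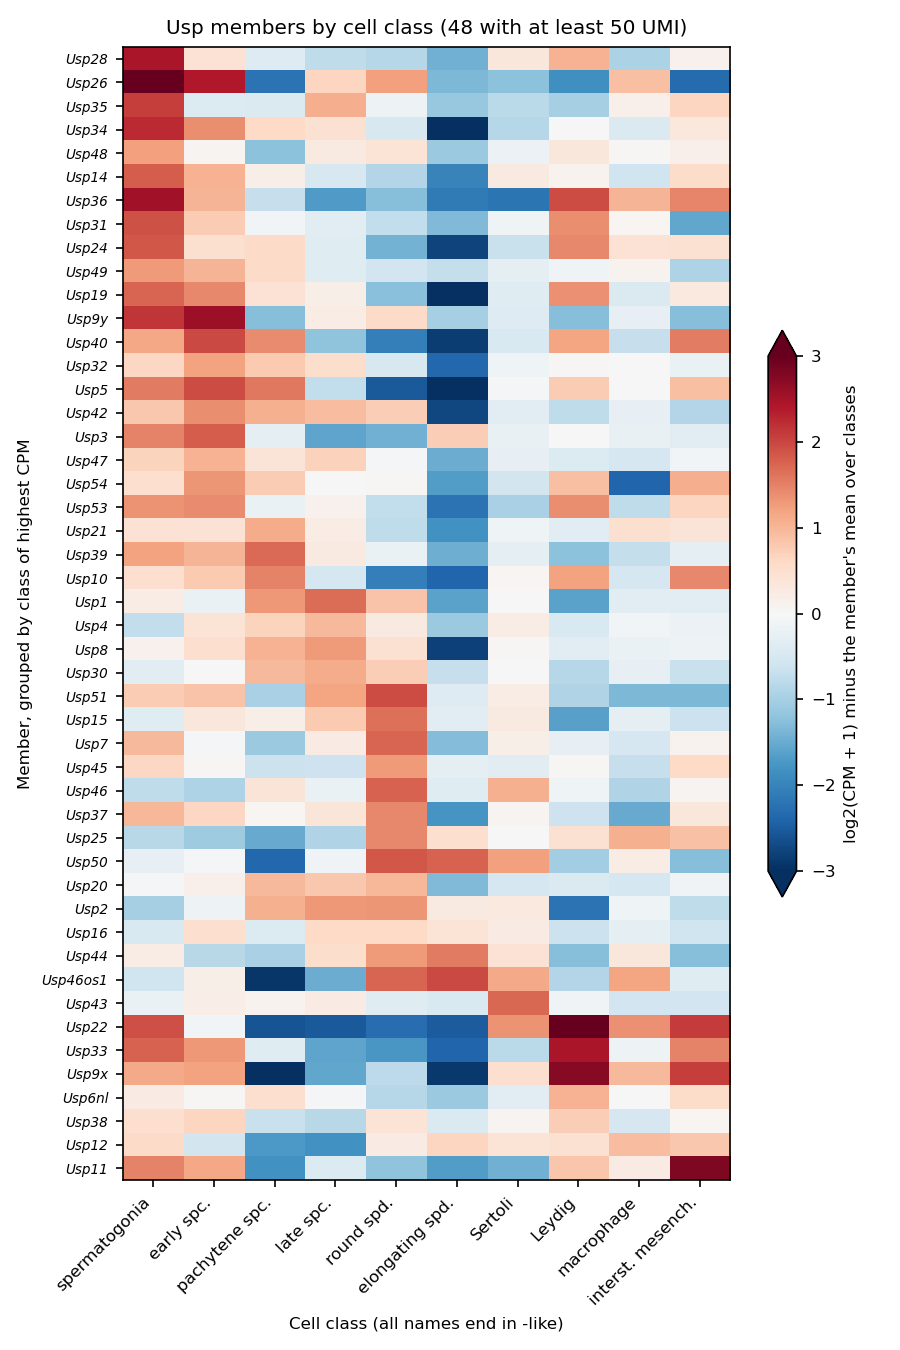
Each row is 1 of the 48 members with at least 50 UMI and each column a cell class; colour is log2(CPM + 1) minus the member's own mean over the 10 classes, red above and blue below it. Rows are grouped by class of highest CPM, and the red blocks step from spermatogonia-like cells at the upper left through round spermatid-like cells, where 11 members peaked, to 8 members that peaked in somatic classes.

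To show what lies at the start of the members that switch between stages, the 100 bases before the RefSeq transcript start are printed for 6 of them, on GRCm38.p6, 5′ to 3′ on the gene's strand, with every CG pair in capitals. Usp7 and Usp2 peaked in round spermatid-like cells, Usp3 was low in late meiosis and round spermatid-like cells and high again in elongating ones, Usp50 was the member most evenly held between both spermatid classes, and Usp26 and Usp51 are X-linked. For Usp2 and Usp7 the RefSeq start lies well inside the annotated gene (chr9:44067021-44095627 and chr16:8689595-8792308), so the outermost start is not shown. Which start was used in these cells was not tested.
Usp7 (chr16:8738343-8738442, minus strand): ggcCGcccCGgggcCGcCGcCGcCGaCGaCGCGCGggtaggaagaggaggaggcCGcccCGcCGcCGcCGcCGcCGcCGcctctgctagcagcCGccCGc
Usp2 (chr9:44084820-44084919, plus strand): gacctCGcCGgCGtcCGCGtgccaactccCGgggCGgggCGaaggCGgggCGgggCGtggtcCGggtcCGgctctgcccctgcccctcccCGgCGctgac
Usp3 (chr9:66593116-66593215, minus strand): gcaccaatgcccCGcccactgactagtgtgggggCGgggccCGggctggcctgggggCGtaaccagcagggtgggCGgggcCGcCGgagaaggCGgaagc
Usp51 (chrX:153006369-153006468, plus strand): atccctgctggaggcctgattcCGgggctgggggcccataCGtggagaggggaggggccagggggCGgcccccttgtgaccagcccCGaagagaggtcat
Usp26 (chrX:51801234-51801333, minus strand): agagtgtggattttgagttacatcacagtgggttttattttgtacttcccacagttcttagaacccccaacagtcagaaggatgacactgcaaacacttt
Usp50 (chr2:126783461-126783560, minus strand): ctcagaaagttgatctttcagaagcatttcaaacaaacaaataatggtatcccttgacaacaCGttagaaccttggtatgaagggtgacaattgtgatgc

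Over the 250 bases before the start, the Usp7 window had 55 CG pairs, Usp2 25, Usp3 18, Usp51 and Usp26 5 each, and Usp50 2. RefSeq windows were found for 43 of the 57 members, in 44 windows. Their median was 21 CG pairs, against 6 over 32817 windows of all genes. At most 3 CG pairs were found in 5 member windows (11.4%) and in 37.8% of all windows, and the 5 belonged to Usp50 and to the Usp17 copies Usp17la, Usp17lb, Usp17lc and Usp17ld. The core of the cAMP response element, TGACGT, searched on both strands from 250 bases before to 50 bases after the start, was in 7 of the 44 member windows and in 7.51% of all windows. The 7 were Usp2, Usp8, Usp11, Usp29, Usp36, Usp38 and Usp54, and in Usp2 it began at position -4 and ran across the start. Its full form TGACGTCA, which contains the core, was in the window of Usp29 and in 1.79% of all windows. GTTGCCA, part of the X-box bound by RFX factors, was in the window of Usp50 and in 4.38% of all windows. These matches describe letters only.

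Neighbouring germ cell classes were compared in the order of the stages. A gene was tested when it had at least 50 UMI over both classes, and was called higher or lower in the later class when pooled CPM changed by 2-fold or more and every one of the 4 libraries had the same sign. Intervals are exact 95% intervals for counting error only, and do not cover the spread between libraries. The clusters were built without the members, but from genes of the same cells.

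**Figure D2:**
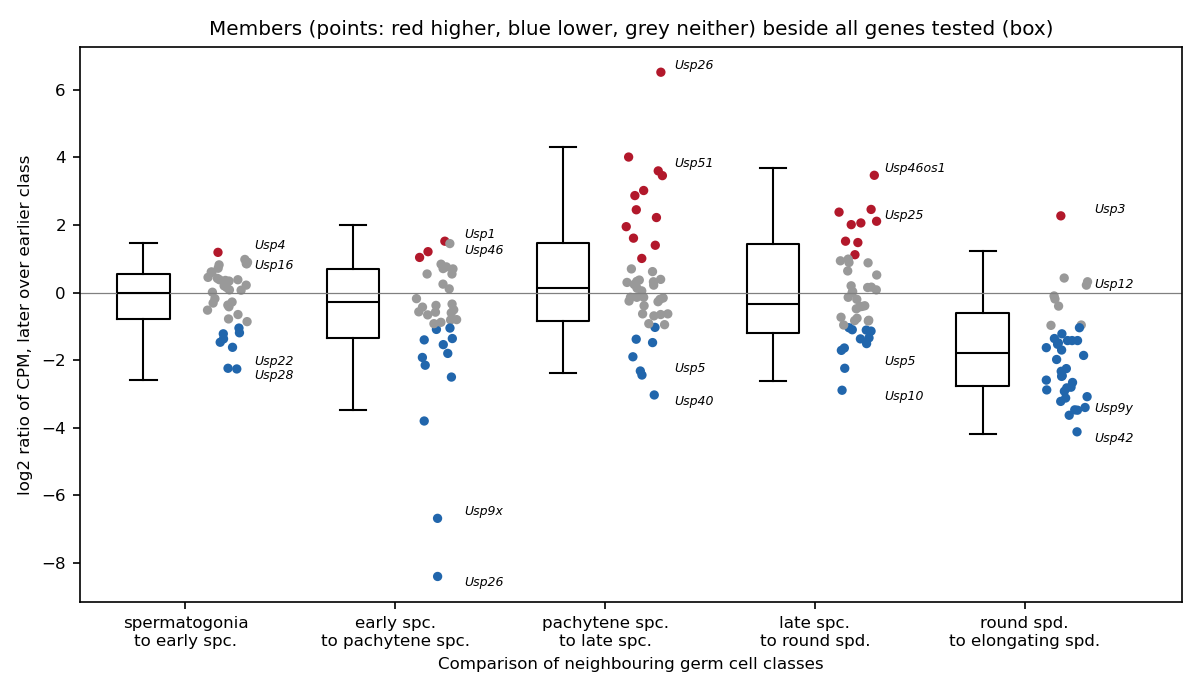
The vertical axis is the log2 ratio of CPM, later over earlier class, for the 5 comparisons on the horizontal axis; boxes give the median, the quartiles and the central 90% of all genes tested, and points the members (red higher, blue lower, grey neither). Where a class had 0 UMI it was set to 3 counts. From round to elongating spermatid-like cells the medians of members and genes were -1.86 and -1.79, and Usp3 was the only member called higher.

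From spermatogonia-like to early spermatocyte-like cells, a histone protease and several regulators were lower. Of 38 members tested, 8 were lower (21.1%, beside 19.9% of 9419 genes) and 1 was higher (2.63%, beside 11.2%), so the share of lower calls was near that of all genes. The median log2 ratio was 0.07 for members and -0.01 for all genes. Usp22, the deubiquitinase of the SAGA coactivator complex, was at 20, 20.1, 25.6 and 22.8 CPM in the spermatogonia-like cells of suffixes 1 to 4, and at 5.88, 4.85, 6.03 and 1.54 CPM in early spermatocyte-like cells. The 2 sets of libraries did not overlap, and the log2 ratio was -2.24 (-3.22 to -1.38). Usp28, which acts in the DNA damage response, fell from 20.6 to 4.32 CPM with a log2 ratio of -2.26 (-3.28 to -1.36), and the nucleolar Usp36 from 25.5 to 8.28 CPM, or -1.62 (-2.36 to -0.94).

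Usp24 (log2 ratio -1.47), Usp26 (-1.37), Usp12 (-1.22), Usp48 (-1.19) and Usp7 (-1.05) completed the lower members. The call for Usp7 was lost under 5 of the 14 other settings, and those for Usp26 and Usp12 under 2 each. Usp4 was higher, from 29.7 to 67.6 CPM or 1.19 (0.83 to 1.55). Usp16, Usp54, Usp40, Usp2 and Usp46os1 followed with 0.98, 0.90, 0.86, 0.85 and 0.82, each in the same direction in all libraries but under the limit. Among further members, Usp14 had -0.78, Usp3 0.34, Usp8 0.38, Usp42 0.60, Usp9x 0.07 and Usp9y 0.45. When the cells with the highest doublet scores were removed, the spermatogonia-like class shrank from 706 to 238 cells, and Usp22, Usp24, Usp26, Usp7 and Usp4 changed direction, to 0.02, 0.47, 0.36, 0.35 and -0.49. None of the 8 lower calls held in that setting, and with up to 20% mitochondrial UMI allowed 16 members were lower.

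On the way into pachytene, a few germ cell proteases were higher and the X-linked members nearly vanished. Of 37 members tested, 3 were higher (8.11%, beside 17.9% of 9808 genes) and 12 lower (32.4%, beside 31.3%). The median was -0.58 for members and -0.27 for all genes, and relative to the median gene 6 members were higher and 10 lower. Without the highest doublet scores 22 members were lower, and with up to 20% mitochondrial UMI 7 were. Usp1 was at 116, 170, 146 and 137 CPM in early and at 397, 404, 408 and 421 CPM in pachytene spermatocyte-like cells. All pachytene libraries lay above all early ones, with a log2 ratio of 1.52 (1.37 to 1.67). Usp1 works with the partner Wdr48 (also UAF1), which went from 92.5 to 221 CPM, a log2 ratio of 1.26 (1.08 to 1.45). Usp2, whose loss is known to impair fertility of male mice, was at 195, 229, 240 and 179 CPM in early and at 502, 507, 479 and 480 CPM in pachytene spermatocyte-like cells, again without overlap and with a ratio of 1.21 (1.09 to 1.34).

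Usp30, a protease of the outer mitochondrial membrane, was the third higher member, at 13.7 and 28.0 CPM. None of these 3 calls held when up to 20% mitochondrial UMI were allowed, where Usp1, Usp2 and Usp30 had 0.66, 0.61 and 0.60 and the early class 1537 instead of 805 cells. The call for Usp30 was lost under 6 of the 14 settings in all, with ratios from 0.60 to 0.98, and that for Usp2 also at resolution 2, with 0.97. Usp20, Usp10 and Usp21 followed with 0.84, 0.76 and 0.71 and were not called.

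Of the lower members, Usp3, which removes ubiquitin from H2A, was at 123, 85.6, 113 and 132 CPM in early and at 21.6, 24.0, 28.2 and 29.4 CPM in pachytene spermatocyte-like cells. Each early library was above each pachytene library, with a log2 ratio of -2.15 (-2.38 to -1.93). Usp33 followed with -1.92, Usp53 with -1.80, Usp38 with -1.54, Usp48 with -1.40, Usp12 with -1.36, Usp7 with -1.09 and Usp19 with -1.05. The call for Usp7 was lost under 5 of the 14 other settings, with ratios from -0.99 to -0.82. Usp14, Usp16 and Usp42 had -0.88, -0.92 and -0.34 and were not called, and Usp8 had 0.55.

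Usp50 and Usp46os1 were also lower, with -2.50 (-2.95 to -2.04) and -3.80 (-4.64 to -3.03), and here spermatid RNA moved with the result. Both are most abundant in spermatids, and the elongating spermatid markers went from 24170 to 2461 CPM between the same classes. Within early spermatocyte-like cells, Usp50 was at 64.3 CPM in the shallow cluster 20 and at 19.6 CPM in cluster 17, and Usp46os1 at 35.3 and 13.6 CPM. The part of spermatid RNA from other cells in these 2 results was not tested. Without clusters of a median under 2000 UMI the Usp50 ratio was -1.77.

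**Figure D3:**
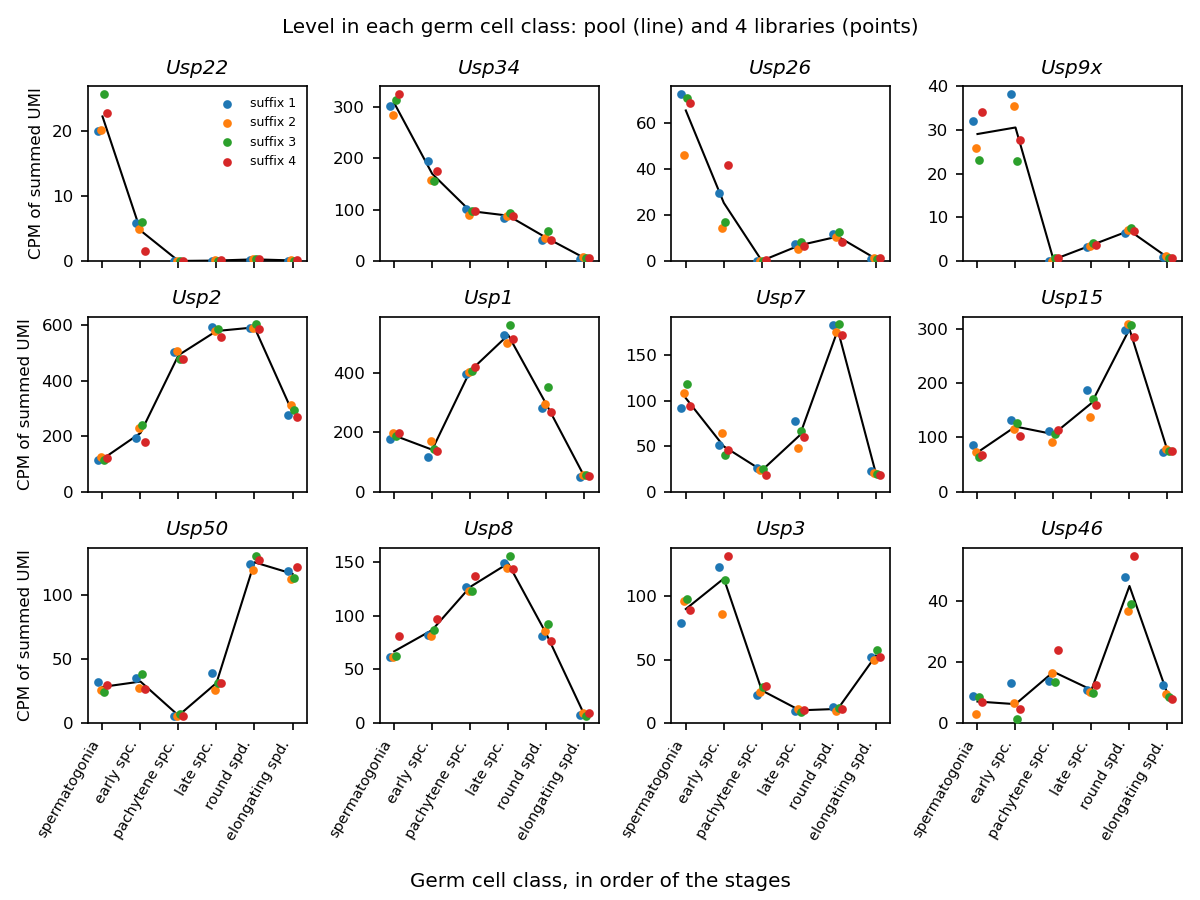
Each panel shows 1 member, with CPM on a vertical axis that starts at 0 and the 6 germ cell classes in order of the stages on the horizontal axis; the line is the pool and the points are suffixes 1 to 4. The libraries lie close together against the larger steps between stages. Usp7 was at 183, 176, 184 and 172 CPM in round and between 18.9 and 22.7 CPM in elongating spermatid-like cells. It was less even in pachytene and late spermatocyte-like cells, where its highest library was 1.43 and 1.63 times its lowest.

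Members on the sex chromosomes followed a course of their own through meiosis. Sex chromosomes are known to be silenced in pachytene spermatocytes. The family has 5 X-linked members, Usp9x, Usp11, Usp26, Usp27x and Usp51, and the Y-linked Usp9y. Usp26, a gene known for its testis transcripts, was at 72.3, 45.8, 70.7 and 68.5 CPM in spermatogonia-like and at 29.4, 14.5, 16.9 and 41.6 CPM in early spermatocyte-like cells. In pachytene spermatocyte-like cells 3 libraries had none and suffix 4 had 0.297 CPM, from 1 UMI among 13414205. The log2 ratio from early to pachytene was -8.40 with a counting interval from -13.72 to -5.88. Usp9x, a large protease of cell adhesion and endosomal transport, was at 38.2, 35.5, 22.9 and 27.7 CPM in early and at 0, 0, 0.619 and 0.594 CPM in pachytene spermatocyte-like cells, a ratio of -6.68 (-8.59 to -5.27). These were the 2 largest differences among the members tested in that comparison.

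The early class held cells on both sides of this step. In cluster 17, which was led by Prss50, Dazl and Stra8, Usp9x stood at 42.3 CPM (33.7 to 52.4), Usp26 at 33.7 CPM (26.1 to 42.8) and Usp9y at 18.6 CPM (13.1 to 25.7). In cluster 20, in which the pachytene gene Piwil1 was at 289 CPM against 91.7 CPM in cluster 17, they were at 1.26 CPM (0.0319 to 7.02), 3.78 CPM (0.780 to 11.1) and 0 CPM (0 to 4.65), from 1, 3 and 0 UMI. Cluster 20 is also the shallower one, and its lower intervals rest on few counts. Usp9y and Usp11 had no UMI in any pachytene library, which allows up to 0.224 CPM for each.

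All 5 sex-linked members tested were higher again from pachytene to late spermatocyte-like cells, where 31.2% of all genes were called higher. These 5 had between 0 and 4 UMI in pachytene spermatocyte-like cells, so they passed the UMI limit through the late class. A sex-linked member that stayed low could not be tested, and Usp27x, with 0 UMI in both classes, was not. The share of members called higher was thus largely set by the limit and cannot be compared with that of all genes. Usp26 went to 7.33, 5.32, 8.17 and 6.45 CPM in the 4 libraries, with a log2 ratio of 6.52 (4.02 to 11.83) against its single UMI. Usp51, which acts on H2A after DNA damage, went from 0.298 to 4.80 CPM, or 4.01 (2.63 to 5.90), and Usp9x from 0.298 to 3.62 CPM, or 3.60 (2.21 to 5.50). Usp9y and Usp11 were at least 8.09-fold and 7.29-fold higher, against a floor of 3 counts over the pachytene class, and reached 1.81 and 1.63 CPM. These levels lay under the spermatogonia-like ones, apart from Usp51.

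Within the late class the return was uneven. Usp26 was at 22.6 CPM in cluster 14 and 12.4 CPM in cluster 24, and at 4.02 and 1.57 CPM in clusters 6 and 13. Usp9x was at 9.88, 4.87, 6.58 and 1.45 CPM in clusters 14, 24, 6 and 13. Usp51 differed from the rest by a peak in a single round spermatid-like cluster, 12, at 53.3 CPM (44.8 to 62.9), against 13.4 CPM in cluster 25 and 2.71 to 5.70 CPM in the other 4. Cluster 12 was led by Zfp219 and Osbpl7 and held 761 cells.

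**Figure D4:**
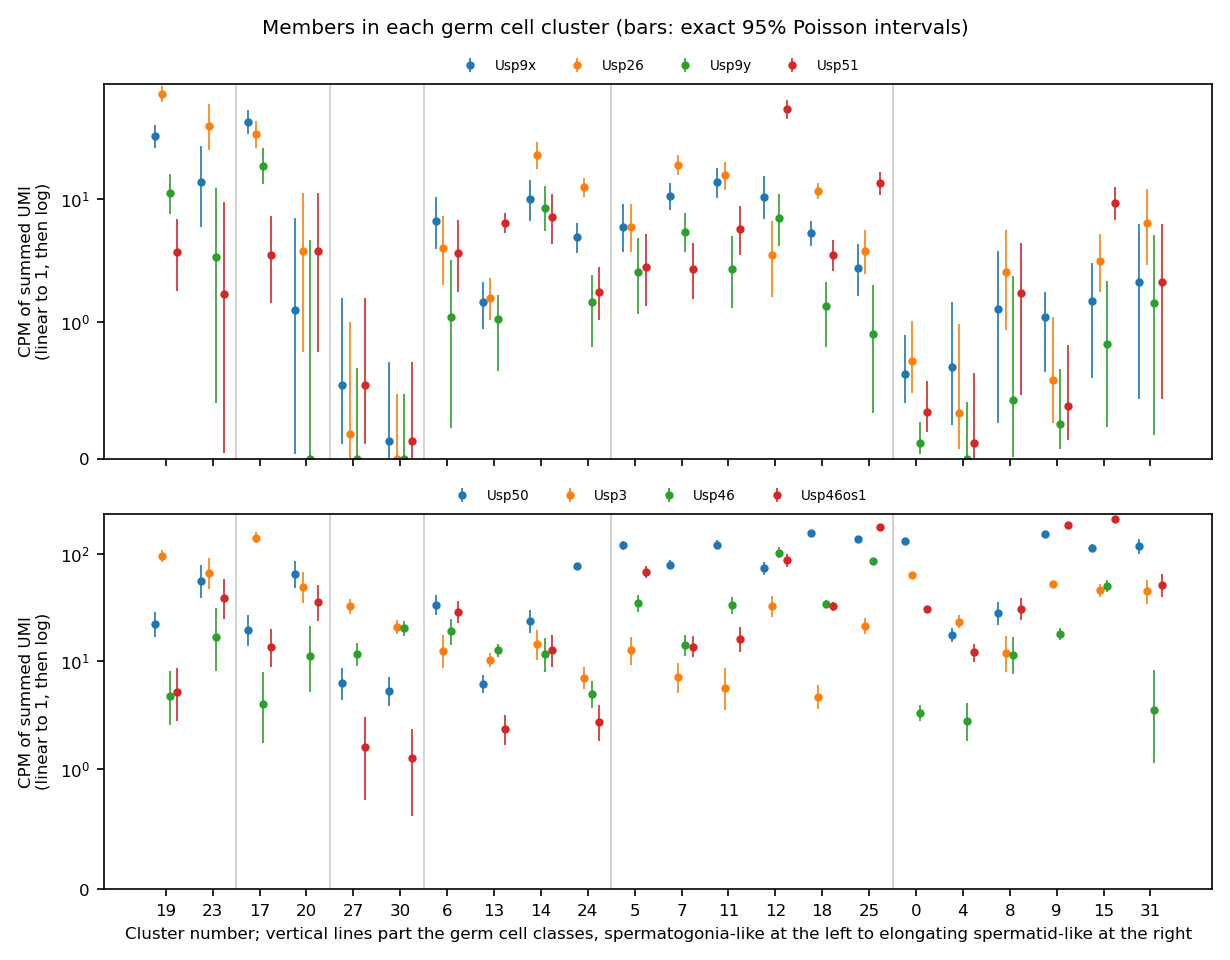
Points are CPM in each germ cell cluster, numbered on the horizontal axis and grouped by class from spermatogonia-like at the left to elongating spermatid-like at the right; bars are exact 95% Poisson intervals, and the vertical axis is linear up to 1 CPM and logarithmic above. In the upper panel the sex-linked Usp9x, Usp26 and Usp9y lie near 0 in the pachytene clusters 27 and 30, and Usp51 stands out in cluster 12; the lower panel shows Usp46os1 above 150 CPM in clusters 25, 9 and 15.

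From pachytene to late spermatocyte-like cells, other members switched too. Of 44 tested, 12 were higher (27.3%, beside 31.2% of 12001 genes) and 7 lower (15.9%, beside 21.5%), and the medians were 0.09 and 0.13. Beside the sex-linked genes, Usp44, a protease of the mitotic checkpoint, went from 0.224 CPM, or 3 UMI, to 2.46 CPM, with a ratio of 3.46 (1.86 to 5.77). Usp50 rose from 5.74 to 31.3 CPM, or 2.45 (2.11 to 2.80), and Usp35 from 1.04 to 4.86 CPM, or 2.22. Usp46os1, Usp48, Usp7 and Usp16 had 1.95, 1.61, 1.40 and 1.01. Spermatid markers moved with the calls for Usp50, Usp46os1 and Usp44, which are most abundant in spermatids: the round spermatid markers summed to 80.3 CPM in pachytene and 1492 CPM in late spermatocyte-like cells, and the elongating ones to 2461 and 7497 CPM. Their part in these 3 results was not tested. The call for Usp16 was lost under 10 of the 14 other settings, with ratios from 0.81 to 0.97, and that for Usp7 under 5, with ratios from 0.39 to 1.0.

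Lower from pachytene to late spermatocyte-like cells were Usp40, at 21.5 and 2.64 CPM with -3.03 (-3.39 to -2.68), and Usp5, which takes apart free ubiquitin chains. Usp5 was at 56.6, 46.9, 46.1 and 44.2 CPM in pachytene and at 8.18, 10.4, 7.43 and 9.93 CPM in late spermatocyte-like cells, and the libraries were far apart, with -2.44 (-2.64 to -2.24). Usp10, whose partner is the stress granule protein G3BP1, had -2.32, Usp33 -1.90, the splicing factor Usp39 -1.48, Usp3 -1.38 and Usp24 -1.03. Usp2, Usp8, Usp42 and Usp14 had 0.24, 0.22, -0.14 and -0.69, within the 2-fold limit.

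With the start of round spermatid-like cells, another set of members was higher, led by Usp46os1, Usp25 and Usp12. Of 44 members tested, 9 were higher (20.5%, beside 30.4% of 13424 genes) and 11 lower (25.0%, beside 30.1%). The medians were -0.17 and -0.33, and relative to the median gene 13 were higher and 7 lower. Usp25 was at 10, 9.32, 9.84 and 8.56 CPM in late spermatocyte-like cells and at 51.4, 54.0, 53.5 and 49.4 CPM in round spermatid-like cells. Every round library was above every late one, with a log2 ratio of 2.46 (2.29 to 2.64). Usp7, which acts on MDM2, p53 and chromatin proteins, was at 77.8, 47.8, 66.4 and 60.1 CPM and then at 183, 176, 184 and 172 CPM, again without overlap and with 1.52 (1.45 to 1.59).

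The paralogs Usp12 and Usp46, which both use Wdr48 and Wdr20, rose by 2.38 (2.08 to 2.69) and 2.06 (1.89 to 2.23), to 16.5 and 44.8 CPM. Their partners were not higher: Wdr48 was lower, from 289 to 122 CPM, and Wdr20 was at 23.9 and 21.0 CPM. Usp45, Usp38 and Usp37 had 2.11, 1.48 and 1.12, and Usp50 reached 126 CPM with 2.01 (1.91 to 2.10). The antisense RNA Usp46os1 had the largest ratio of any member, 3.47 (3.25 to 3.69), from 5.49 to 60.8 CPM. It overlaps Usp46 on the opposite strand (chr5:74014215-74029680 within chr5:73998453-74068431), and the labels and headers do not state whether strand was used in counting, so reads of the pair could be mixed. The elongating spermatid markers rose from 7497 to 32932 CPM between the same classes, and their part in these results was not tested.

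Lower in round spermatid-like cells were Usp10 (-2.89), Usp5 (-2.24), Usp35 (-1.71), Usp11 (-1.64), Usp19 (-1.51) and Usp40 (-1.37), followed by Usp24, Usp21, Usp6nl, Usp32 and Usp53 between -1.34 and -1.04. Usp5 and Usp10 were thus lower in this and the preceding comparison, and were at 1.90 and 0.413 CPM in round spermatid-like cells, from 48.8 and 15.3 CPM in pachytene. As a mean over cells, which gives shallow cells equal weight, 6 members were lower in place of 11. Usp9x, Usp44, Usp26, Usp9y and Usp3 had 0.94, 0.99, 0.64, 0.52 and 0.16 and were not called, while Usp8, Usp14 and Usp42 had -0.83, -0.41 and -0.20.

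Elongating spermatid-like cells were lower in nearly all members, as in most genes. Of 39 members tested, 30 were lower (76.9%, beside 67.4% of 13085 genes) and 1 higher (2.56%, beside 6.20%). Because the median gene moved by -1.79, CPM ratios of this comparison are best read against it, and relative to the median gene 12 members were lower and 7 higher. Usp42 was lowest, at 23.8, 28.9, 32.6 and 25.7 CPM in round and 2.06, 1.5, 1.27 and 1.51 CPM in elongating spermatid-like cells, or -4.12 (-4.40 to -3.84) and -2.33 against the median gene. Usp9y, Usp26, Usp37, Usp8 and Usp51 followed with -3.63, -3.48, -3.47, -3.40 and -3.22, then Usp7 and Usp9x with -3.12 and -3.08. Usp2 and Usp14 had -1.04 and -1.22, and both turned positive against the median gene, at 0.75 and 0.57.

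Usp3 was the exception. It was at 12.3, 9.39, 11.5 and 10.8 CPM in round spermatid-like cells and at 52.3, 49.8, 57.2 and 51.9 CPM in elongating ones, so that each library rose, with a log2 ratio of 2.27 (2.12 to 2.42) and 4.06 against the median gene. The earlier peak of Usp3 at 114 CPM in early spermatocyte-like cells was thus followed by a trough of 9.88 CPM in late spermatocyte-like cells and a second, lower rise. By cluster it was at 62.6 CPM in the elongating cluster 0 and 52.3 CPM in cluster 9, and at 23.3 and 12 CPM in clusters 4 and 8. The call held under all settings tried.

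A group of members changed little while the median gene fell. Usp16 was at 113 and 99.0 CPM in round and elongating spermatid-like cells, Usp50 at 126 and 117 CPM, Usp46os1 at 60.8 and 70.8 CPM, Usp12 at 16.5 and 22.2 CPM, and Usp44 at 4.88 and 6.07 CPM. Against the median gene their ratios were 1.60, 1.69, 2.01, 2.22 and 2.11. Usp50 was uneven inside the elongating class, at 130, 151, 113 and 117 CPM in clusters 0, 9, 15 and 31 and at 17.6 and 28.2 CPM in clusters 4 and 8. Usp50 is classed as lacking protease activity, since its catalytic domain is not intact. It overlaps Usp8 on the other strand (Usp50 chr2:126709096-126783470, Usp8 chr2:126707328-126759297), so with strand use unknown the pair could share reads. Their courses differed all the same, since Usp8 was at 149 CPM in late spermatocyte-like cells against 31.3 CPM for Usp50, and at 7.89 CPM in elongating spermatid-like cells against 117 CPM.

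Usp46 and its antisense RNA differed within the spermatid classes. In the round spermatid-like clusters 12 and 25 Usp46 was at 102 and 84.4 CPM and Usp46os1 at 86.5 and 175 CPM. In the elongating clusters 15 and 9 Usp46 was at 50.3 and 18.0 CPM, while Usp46os1 stayed at 207 and 182 CPM. In cluster 0, the largest elongating cluster, they were at 3.33 and 30.8 CPM.

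Grouped by role, the 12 members known to act on ubiquitinated H2A or H2B did not move as 1 block. Of those tested, 0 were higher and 4 of 7 lower from spermatogonia-like to early spermatocyte-like cells, and 0 higher and 3 of 6 lower into pachytene, beside 19.9% and 31.3% of all genes lower. The 4 lower members of the first comparison, Usp7, Usp12, Usp22 and Usp36, all lost their call without the highest doublet scores, at 0.35, -0.93, 0.02 and -0.05. From pachytene to late spermatocyte-like cells 4 of 8 were higher and 1 lower, into round spermatid-like cells 3 of 8 higher and 1 lower, and into elongating spermatid-like cells 1 of 8 higher and 4 lower. Their medians were -1.05, -1.0, 0.44, 0.94 and -0.80, beside -0.01, -0.27, 0.13, -0.33 and -1.79 for all genes. Usp22 was not detected in pachytene spermatocyte-like cells, which allows up to 0.224 CPM, and was at 0.0593, 0.248 and 0.0783 CPM in the 3 later classes, so this member was near its limit of detection from pachytene on. Usp49, which acts on H2B, was low in every class, at 3.64 CPM in spermatogonia-like and 0.170 CPM in elongating spermatid-like cells.

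The 5 members that lack protease activity or were long classed so, Usp6nl among them, had 0 higher and 0 lower of 4 tested in the first comparison. Then 0 and 2, 1 and 1, 1 and 2, and 0 and 3 of 5 were called. All genes had 11.2%, 17.9%, 31.2%, 30.4% and 6.20% higher and 19.9%, 31.3%, 21.5%, 30.1% and 67.4% lower over the 5 comparisons. The 9 members of proteasome, endosome, mitochondria and free ubiquitin had more lower calls in the last comparison than in any other, as did all genes. None of 7 tested was called in the first comparison, and 1 of 8 was higher and 2 lower in the second. In the third and in the fourth 3 of 8 were lower and none higher, beside 21.5% and 30.1% of all genes lower, and all 6 tested were lower in the fifth, beside 67.4%. The median in the fifth was -2.16, against -1.79 for all genes. Of 9 cell cycle and DNA repair members, all 8 tested were lower in the fifth comparison, with a median of -1.66 beside -1.79 for all genes. The lists were drawn up with earlier results of these data known, so their counts describe them and support nothing beyond that.

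Partners of the enzymes were counted in the same way. Of 14 partner genes, 2 of 13 tested were higher and 4 lower in the first comparison, 2 and 4 of 14 in the second and in the third, 0 and 5 of 14 in the fourth, and 0 and 10 of 13 in the fifth. In the same order, all genes had 11.2%, 17.9%, 31.2%, 30.4% and 6.20% higher and 19.9%, 31.3%, 21.5%, 30.1% and 67.4% lower. Gmps, the partner of Usp7, was highest in late spermatocyte-like cells at 535 CPM, where Usp7 was at 62.3 CPM, and was at 353 CPM in round spermatid-like cells, where Usp7 was at 178 CPM. Eny2 and Atxn7l3, subunits of the SAGA deubiquitinase module with Usp22, were at 84.5 and 5.81 CPM in pachytene spermatocyte-like cells, where no UMI of Usp22 was found.

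Leydig-like cells held Usp9x at 89.2 CPM (78.2 to 101), Usp22 at 54.2 CPM (45.7 to 63.8) and Usp33 at 30.1 CPM (23.9 to 37.5), with Usp9x between 84.1 and 106 CPM in the 4 libraries. Round spermatid-like cells had 6.95, 0.248 and 0.689 CPM of the same genes. Usp26 had 1 UMI in Leydig-like, 4 in Sertoli-like and 0 in interstitial mesenchymal-like cells. In macrophage-like cells it had 8 UMI, or 8.33 CPM (3.60 to 16.4), beside 6.82 CPM in late spermatocyte-like cells and 41103 CPM of elongating spermatid markers. In contrast, Usp2 reached 288 CPM among Sertoli-like cells, where the elongating spermatid markers summed to 65695 CPM. Leydig-like cells had 50.5 CPM of it, and 9453 CPM of those markers. The part of spermatid RNA from other cells in these levels was not tested.

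Shares of cells with a UMI followed the levels once depth was set equal. Usp2 was found in 75.2% of round and 69.6% of elongating spermatid-like cells, and in 41.5% and 22.5% of them after each cell was thinned to 1000 UMI. In Leydig-like cells, which had the lowest level of Usp2 among the 10 classes ranked, the shares were 28.2% and 4.68%, at a median of 7663.5 UMI. Usp26 was found in 23.1% of spermatogonia-like cells (6.28% thinned) and in 0.232% of the much deeper pachytene spermatocyte-like cells. In Leydig-like cells the share was 0.294% (0.00745 to 1.63). The pachytene and Leydig-like shares each rest on 1 UMI and are not thinned, so they cannot be ranked.

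Some members had courses much like each other. By Pearson's r of log2(CPM + 1) over 10 classes, given as a description because the classes share libraries, the members most like Usp2 were Usp15 (0.89), Usp30 (0.84), Usp1 (0.72), Usp16 (0.70) and Usp4 (0.60). Those most like Usp26 were Usp9y (0.94), Usp48 (0.66), Usp51 (0.64), Usp49 (0.63) and Usp35 (0.59), and those most like Usp9x were Usp22 (0.92), Usp11 and Usp33 (0.80 each), Usp36 (0.73) and Usp38 (0.71).

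Scarce members complete the family. Usp17la, Usp17lb, Usp17lc, Usp17ld and Usp17le, closely related copies on chromosome 7, had no UMI in the kept cells, which allows up to 0.0161 CPM over all of them. Usp13, Usp18, Usp27x and Usp29 had 8, 32, 49 and 25 UMI in the named classes. Of these, Usp18, which removes the ubiquitin-like ISG15, had its highest level in macrophage-like cells at 9.37 CPM (4.29 to 17.8), and Usp27x in Leydig-like cells at 11.7 CPM (7.93 to 16.6). Usp43 was highest in Sertoli-like cells at 3.96 CPM, from 14 UMI.

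The spread between libraries was of the same order as for other genes. Among members with at least 100 UMI in a library, the median ratio of the highest to the lowest library was 1.12, 1.34, 1.22, 1.16, 1.25 and 1.19 over the 6 germ cell classes, beside 1.22, 1.25, 1.20, 1.22, 1.23 and 1.23 for all genes. The widest was Usp45 in elongating spermatid-like cells at 1.98, with 7.87, 6.27, 6.04 and 3.97 CPM. Usp30 in round spermatid-like cells had 1.64 and Usp7 in late spermatocyte-like cells 1.63.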

How the data were processed

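The authors deposited 1 matrix of UMI counts per gene and cell, made with Cell Ranger 3.0.2 per the file headers; the build mm10 and bcl2fastq 2.19.1.403 are named in the submitters' processing notes, per the labels, and the reads came from a pair of instruments per the labels. No annotation release or strand setting is stated. Cells needed 500 or more genes, with mitochondrial UMI no higher than 10%. The doublet caller of scanpy 1.11.5, at an expected 6%, marked 15 of 29968 cells (0.0501%), so it did not work and doublets remain. The 2000 most variable genes, without members, list genes and mitochondrial genes, gave 30 components, and cells were clustered on 15 neighbours with leidenalg 0.10.2 at resolution 1.

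Clusters took the cell type with the highest marker score, by a scoring rule set after the clusters were seen, with at least 3 markers each in at least 5% of cells, a score of at least 0.5, a lead of 0.05 and a median of at least 1000 UMI; those with mixed germ cell and somatic markers stayed unnamed. Unnamed cells were 7207 (24.1%). CPM are summed UMI of a class per 1000000 UMI. Since no suffix was tied to a sample, the matrix counted as 1 sample, and the planned edgeR test between genotypes was not run. The members and lists were chosen with earlier results of these data known. Named genes were the 6 highest and 6 lowest ratios per comparison with the same sign in all suffixes, and 13 members always given. The ratio step was tested on simulated data. Gene positions are from GENCODE on GRCm38, and promoter sequences from RefSeq on GRCm38.p6. Lymphocyte-like cells (26) were left out of class rankings.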

Additional observations from a re-analysis of the deposited data

How the results depend on the processing

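No paired analysis was possible because no label tied a library to a genotype or replicate number; the cell classes were compared within each library, and a call needed the same sign in all 4. Over 14 other settings, 1131 of 1248 ratios of named members were stable, that is, they kept direction and side of the 2-fold limit. Of the stable ratios, 91 came from the setting with a limit of 20 UMI. That setting could not change them, because it only alters which genes are tested. Direction turned in 7 ratios of called members and in 36 ratios of members not called. Counts of members are not among these 1248 and were judged apart, as stable within 1.5 times. From spermatogonia-like to early spermatocyte-like cells the count of higher members, 1, became 3 with 1000 genes required, at resolution 0.5 or without clusters of a median under 2000 UMI, 2 with up to 20% mitochondrial UMI and 4 without the highest doublet scores, and lay between 1 and 2 with 1 suffix left out (2 without suffix 1 or suffix 2). The 8 lower members became 16 with up to 20% mitochondrial UMI and 0 without the highest doublet scores, where Usp22, Usp24, Usp26, Usp7 and Usp4 turned to 0.02, 0.47, 0.36, 0.35 and -0.49 and the spermatogonia-like class held 238 cells. Into pachytene, the 3 higher members became 0 with up to 20% mitochondrial UMI, 1 at resolution 2 and 6 centred on the median gene, and the 12 lower became 7 with up to 20% mitochondrial UMI and 22 without the highest doublet scores. From late spermatocyte-like to round spermatid-like cells the 11 lower members became 6 as a mean over cells and 7 when centred. Into elongating spermatid-like cells, centring gave 7 higher in place of 1 and 12 lower in place of 30, and Usp2 and Usp14 turned to 0.75 and 0.57. The cause was not tested. Leaving out 1 suffix gave 10 to 11 lower members into pachytene and 9 to 10 higher and 6 to 8 lower from pachytene to late spermatocyte-like cells. Depth limits scarce members most in spermatogonia-like and early spermatocyte-like cells, where a count of 0 allows 0.911 and 1.08 CPM.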

Other observations

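Deubiquitinases of other families had stage courses of their own. Uchl1, a hydrolase known from spermatogonia, was at 706 CPM in spermatogonia-like and 23.7 CPM in early spermatocyte-like cells, a log2 ratio of -4.89 (-5.27 to -4.54), and it was among the markers used for naming, so this difference describes the classes. Stambpl1, a protease of endosomes with a JAMM domain, went from 1.42 CPM in pachytene to 42.7 CPM in late spermatocyte-like and 142 CPM in round spermatid-like cells, and was at 6.70 CPM in elongating ones. The log2 ratios of its 3 steps were 4.92, 1.73 and -4.40. Otud6a had 2 UMI in late spermatocyte-like cells and 3.5 CPM in round spermatid-like cells, a ratio of 5.88 (4.0 to 8.94).

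From pachytene to late spermatocyte-like cells, 13 of 16 OTU deubiquitinases were tested. Of these 6 were higher and 1 lower, beside 31.2% and 21.5% of all genes. Into round spermatid-like cells 6 of 14 OTU deubiquitinases were higher and 1 lower, beside 30.4% and 30.1%. The medians of the OTU genes were 0.68 and 0.25, beside 0.13 and -0.33 for all genes. Uba1, the X-linked ubiquitin-activating enzyme, was likewise near 0 in pachytene spermatocyte-like cells. It was at 109 CPM in spermatogonia-like, 0.373 CPM in pachytene and 40.7 CPM in round spermatid-like cells. From late to round spermatid-like cells Uba1 was called higher, with a log2 ratio of 2.81 (2.59 to 3.03). Of the 5 sex-linked members tested there, 0 were higher and 1 was lower. Of the MINDY, ZUP1 and CYLD list of 7, Cyld and Zufsp were found under the symbols searched.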
